A study of Mus musculus with 2 samples.

Results

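The genes described are 8 members of the poly(ADP-ribose) polymerase (PARP) family, Parp1, Parp3, Parp8, Parp9, Parp10, Parp11, Parp12 and Parp14, together with Dtx3l, the E3 ubiquitin ligase that partners PARP9. The 9 genes were picked by symbol from 55536 annotated genes. All 9 were among the 12543 genes that passed a filter on low counts in both libraries. The cells were macrophages grown in culture from the bone marrow of C57BL/6J mice. PolyA-selected RNA from whole-cell extracts was sequenced from 1 group, as 2 biological replicates. According to the free-text description, the cells received 100 ng/ml Lipid A, the part of bacterial lipopolysaccharide that sits in the outer membrane, over 12 h, were washed and held 12 h without it, and then received the same dose for a further 300 min. The structured treatment field has lipoprotein A in its place, with the type given as protein, and which agent was used cannot be settled from the labels. Age and sex were not collected. Both libraries carry 1 donor identifier but separate biosample identifiers, so their spread may be smaller than that between animals.

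PARP enzymes split NAD+ and attach its ADP-ribose part to proteins or nucleic acids. PARP1 and PARP2 build long poly(ADP-ribose) chains at broken DNA, whereas most other members add a single unit and are called mono-ADP-ribosyltransferases. Several of the mono-ADP-ribosyltransferases, among them PARP9 with its partner DTX3L, PARP10, PARP11, PARP12 and PARP14, are known as products of interferon-stimulated genes, and macrophages make type I interferon after Lipid A. Without an untreated or interferon-treated sample, a response of these genes to interferon or to Lipid A could not be measured, and no test between conditions was possible. What the data give is the level of each gene, the distance between replicates, the contrast with Parp1 inside each library and the transcripts that made up each level.

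The mono-ADP-ribosyltransferase gene Parp11 has annotated transcript starts 6883 bases apart, and transcripts from both were quantified in these cells. The stretches that precede each Parp11 start and the Parp1 start are shown to compare them, as RefSeq gives them on GRCm38.p6 and on the plus strand, 5′ to 3′. Capitals mark every match to 3 short motifs searched on both strands: GAAANNGAA, the core of the interferon-stimulated response element, TTCNNNGAA, the form of site that STAT dimers bind, and GGGCGG, the GC box bound by Sp1.
Parp11 upstream start, chr6:127446590-127446839: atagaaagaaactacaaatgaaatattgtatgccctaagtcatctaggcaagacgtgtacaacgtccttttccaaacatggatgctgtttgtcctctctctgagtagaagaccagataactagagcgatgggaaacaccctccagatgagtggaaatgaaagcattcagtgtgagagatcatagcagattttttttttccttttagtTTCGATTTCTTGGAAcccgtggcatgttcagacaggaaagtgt
Parp11 downstream start, chr6:127453377-127453619: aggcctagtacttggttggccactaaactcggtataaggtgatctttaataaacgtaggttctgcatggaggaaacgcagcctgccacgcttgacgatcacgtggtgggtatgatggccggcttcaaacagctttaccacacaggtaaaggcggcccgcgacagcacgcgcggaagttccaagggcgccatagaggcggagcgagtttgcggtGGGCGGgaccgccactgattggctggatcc
Parp1, chr1:180568641-180568890: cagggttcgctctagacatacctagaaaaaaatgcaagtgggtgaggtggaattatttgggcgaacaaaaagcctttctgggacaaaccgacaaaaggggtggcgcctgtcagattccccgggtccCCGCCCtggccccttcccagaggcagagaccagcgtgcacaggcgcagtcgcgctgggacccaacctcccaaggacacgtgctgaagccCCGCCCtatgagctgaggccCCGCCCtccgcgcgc
In the 250 bases before the upstream Parp11 start, the response element core lay on the minus strand 43 to 35 bases before the start, and a STAT site lay 37 to 29 bases before it, so the capitals form 1 run in which both overlap. The window before the downstream Parp11 start was ended where an annotated exon begins. It had 1 GC box 37 to 32 bases before the RefSeq start and neither of the other motifs. That RefSeq start lies upstream of the first base of transcript Parp11-201, 127453723, from which the distance of 6883 bases was taken. The Parp1 window had 3 GC boxes, all on the minus strand, and neither of the other motifs. Base composition differed too, with 40.4% G and C in the upstream Parp11 window, 57.2% in the downstream one and 61.6% in that of Parp1. Among 32817 RefSeq windows of 250 bases, 7.12% held the response element core, 7.01% the STAT site, 0.750% both and 32.7% the GC box. RefSeq windows matched 6 of the 9 genes. The Parp8 window held 2 GC boxes, and the Dtx3l, Parp12 and Parp3 windows held none of the 3 motifs. A match is a run of letters and does not show that a factor binds there.

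Expected counts summed to 50503159 in replicate 1 and 46342331 in replicate 2. All 6 macrophage markers (Adgre1, Csf1r, Cd68, Lyz2, Fcgr1 and Mertk) stood at 10 TPM (a transcript abundance scaled for transcript length and depth) or more in both libraries, and their summed level was 15782 and 16730 TPM. Summed marker levels were 0.72 and 0.89 TPM for dendritic cells, 0.10 and 0.06 TPM for B cells, 0.95 and 0.42 TPM for T and NK cells, and 0.78 and 1.07 TPM for fibroblasts. Neutrophil markers summed to 67.6 TPM in replicate 1 and 4.42 TPM in replicate 2. Of these, S100a9 gave 37.9 and 2.23 TPM and S100a8 gave 23.1 and 1.57 TPM. Ngp at 4.96 and 0.06 TPM and Ltf at 1.03 and 0.01 TPM were also lower in replicate 2. Camp stood at 0.62 and 0.55 TPM, and Ly6g was at 0 in both. The part of other cells in the levels below was not tested, and in bulk RNA fewer cells of a type and less RNA per cell cannot be told apart. Each library was quantified by the authors in 2 ways, from a transcriptome alignment (the first quantification, used unless stated) and directly from the reads (the second quantification). Levels are given as replicate 1 and replicate 2, then as mean ± SD with n = 2, and coordinates are on mm10.

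Parp14 and Parp9 carry macrodomains, folds that bind ADP-ribose, and lie beside Dtx3l on chromosome 16. Parp14 (35832874 to 35871544, minus strand), the largest PARP, was first described in mouse as a co-activator of STAT6. It stood at 326 and 322 TPM, or 324 ± 2.31 TPM, from 82679 and 75466 expected counts. The libraries lay closer together than for any other gene of the set, and 96.2% of the genes that passed the filter had a lower mean. Parp9 (35938470 to 35972605, plus strand) encodes a macrodomain protein long described as having little transferase activity alone. It stood at 197 and 218 TPM, or 208 ± 14.7 TPM, with replicate 2 the higher. Both Parp14 values lay above both Parp9 values, and the Parp14 to Parp9 ratio was 1.65 and 1.48 in replicates 1 and 2.

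Dtx3l (35926511 to 35939151, minus strand) encodes the ubiquitin ligase that forms a heterodimer with PARP9. Its level was 147 and 169 TPM, or 158 ± 14.9 TPM, again higher in replicate 2 and below Parp9 in each library. The Dtx3l to Parp9 ratio was 0.748 and 0.773, a mean of 0.761 ± 0.0179, while both levels differed between libraries. So steady a ratio was not particular to this pair, as Dtx3l over Parp1 was 4.79 and 4.80. Dtx3l and Parp9 are head to head on opposite strands and their annotated spans share 682 bases. Exons of every Dtx3l transcript overlap exons of Parp9. Reads from the shared bases may not have been told apart, because the sources used here do not give the strand handling. A gap of 54966 bases separates Dtx3l from Parp14, and the 3 genes span 139732 bases. The next protein-coding start within 100 kb belongs to Kpna1, an importin gene, which stood at 18.0 and 19.6 TPM, far below its 3 neighbours in both libraries.

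Parp12, Parp10 and Parp11 encode mono-ADP-ribosyltransferases. Parp12 (chromosome 6, 39086410 to 39118349, minus strand), a zinc finger PARP with antiviral activity described in cultured cells, stood at 183 and 189 TPM, or 186 ± 4.24 TPM. Its values lay below both Parp9 values and above both Dtx3l values. Parp10 (chromosome 15, 76231174 to 76243441, minus strand), whose human protein has been linked to NF-κB signalling, stood at 94.7 and 83.2 TPM, or 88.9 ± 8.18 TPM. It and Parp14 were the 2 genes of the set with a lower value in replicate 2. The Parp12 to Parp10 ratio was 1.93 and 2.27. Parp11 (chromosome 6, 127446840 to 127494261, plus strand), whose human protein has been linked to turnover of the type I interferon receptor, stood at 91.4 and 102 TPM, or 96.8 ± 7.54 TPM. Parp11 and Parp10 could not be ordered, since Parp10 was the higher in replicate 1 and Parp11 in replicate 2.

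Parp8 and Parp3 formed the lowest pair above Parp1. Parp8 (chromosome 13, 116854820 to 117025537, minus strand), a little-studied mono-ADP-ribosyltransferase, stood at 45.8 and 56.8 TPM, or 51.3 ± 7.77 TPM. Parp3 (chromosome 9, 106470322 to 106476949, minus strand), which is switched on by DNA breaks but adds single units, stood at 41.5 and 55.0 TPM, or 48.3 ± 9.50 TPM. The ranges of Parp8 and Parp3 overlapped, and their ratio was 1.10 and 1.03. Parp1 (chromosome 1, 180568924 to 180601254, plus strand), the main poly(ADP-ribose) polymerase of DNA repair, was the lowest of the 9 at 30.8 and 35.1 TPM, or 32.9 ± 3.05 TPM, from 3901 and 3964 expected counts. It was not a low gene in these cells, as 73.4% of the genes that passed the filter had a lower mean. The order of mean level has 8 steps between neighbours. In the first quantification, all but Parp11 to Parp10 and Parp8 to Parp3 separated values that did not overlap. In the second, Parp9 at 189.06 and 206.42 TPM and Parp12 at 184.3 and 189.25 TPM overlapped narrowly, with Parp9 the higher in each library.

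**Figure D1:**
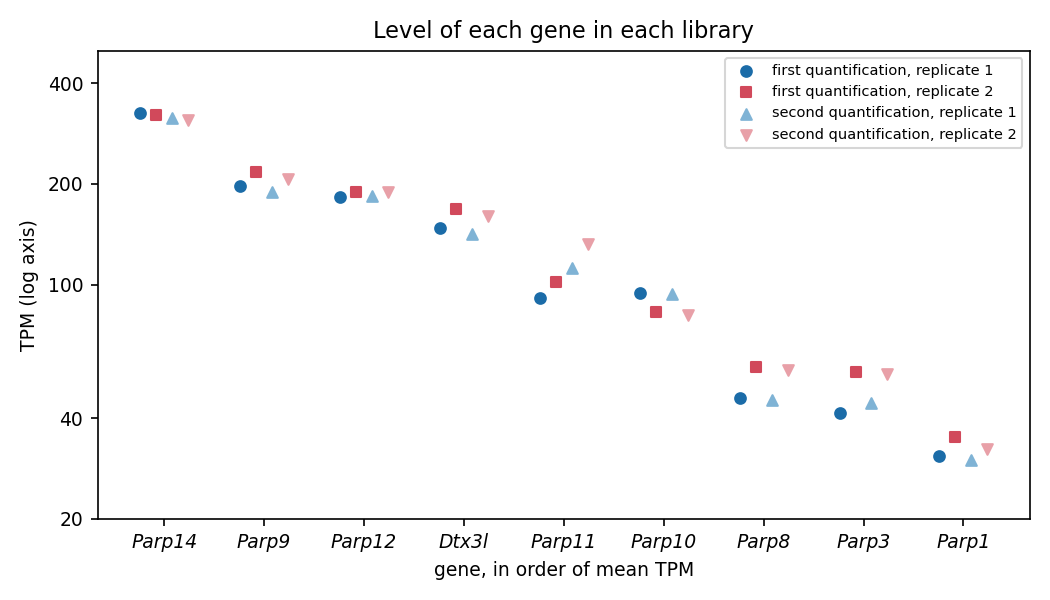
TPM of each gene (log axis) in replicates 1 and 2 of the first quantification (circles and squares) and of the second (triangles), with genes in order of mean TPM. Parp14 sits highest at 326 and 322 TPM and Parp1 lowest at 30.8 and 35.1 TPM, and Parp11 is the gene whose markers differ most between quantifications.

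Parp14, Parp9, Parp12 and Dtx3l stood at 100 TPM or more in both libraries, 4 of the 9 genes, against 9.84% of all genes that passed the filter. The median of the 9 mean levels was 96.8 TPM, against 10.9 TPM over all genes that passed. All 8 other genes were higher than Parp1 in both libraries, a place held by 24.9% of all genes that passed. Within a library, Parp14 was 10.6 and 9.18 times Parp1, Parp9 was 6.40 and 6.21 times, and Parp12 was 5.93 and 5.38 times. Dtx3l was 4.79 and 4.80 times Parp1, the ratio that moved least between libraries. Parp11 was 2.97 and 2.91 times Parp1 and Parp10 was 3.08 and 2.37 times, the widest pair of ratios relative to its size. The smallest were Parp8 at 1.49 and 1.62 times and Parp3 at 1.35 and 1.57 times. On the log2(TPM + 1) scale the ratios over Parp1 ran from 3.26 ± 0.14 for Parp14 to 0.53 ± 0.15 for Parp3. Their median was 1.91 in replicate 1 and 1.87 in replicate 2, or 1.89 ± 0.02, against -1.52 for all genes that passed. The contrast with Parp1 was therefore of unequal size, near 10-fold at one end and under 2-fold for Parp8 and Parp3.

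Replicates lay within 2-fold of each other for all 9 genes. The log2 ratio of replicate 2 over replicate 1, on TMM-scaled CPM (counts scaled to library size), was -0.02 for Parp14, 0.15 for Parp9, 0.18 for Dtx3l and 0.07 for Parp12. It was 0.17 for Parp11, -0.21 for Parp10, 0.29 for Parp8, 0.13 for Parp3 and 0.14 for Parp1. None of the 9 genes was 2-fold or more apart, against 4.21% of all genes that passed. With 9 genes, this count is near that share and does not set them apart. Replicate 2 was the higher for 7 of the 9, and for 50.0% of all genes. The median size of the log2 ratio was 0.15 for the set and 0.21 for all genes that passed. Parp8 lay furthest apart, and 63.4% of all genes had a smaller distance than it did. For Parp3 the TPM and count scales differed, with expected counts of 3169 and 3190. Its gene length, averaged by the quantifier over its transcripts, was 2366 bases in replicate 1 and 2011 in replicate 2. A shorter length raises TPM at equal counts.

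**Figure D2:**
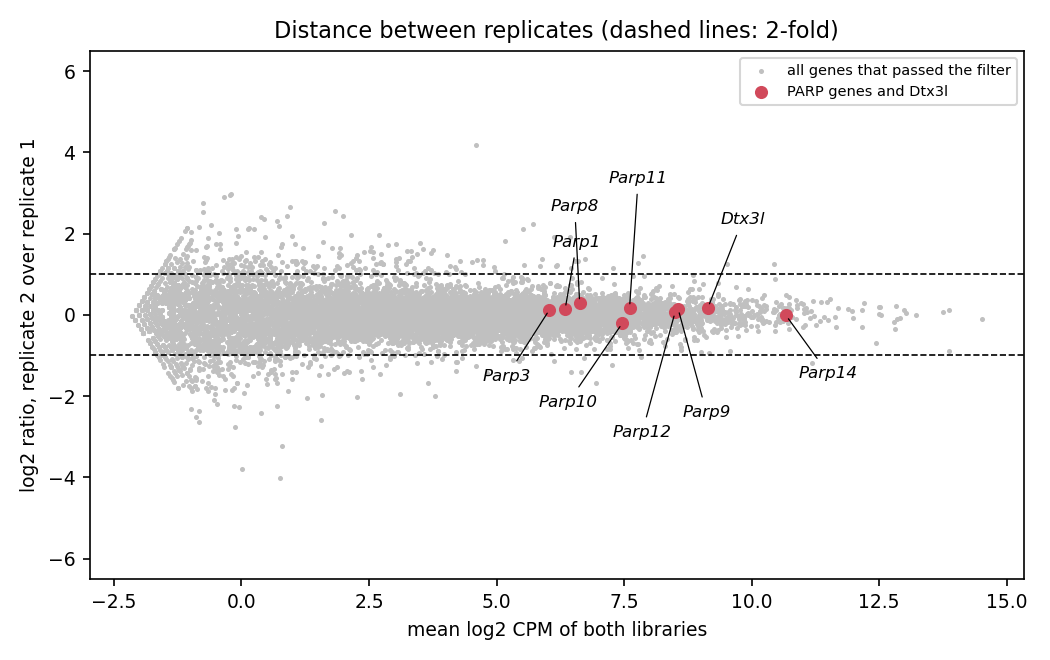
Log2 ratio of replicate 2 over replicate 1 against mean log2 CPM for each gene that passed the filter (grey) and for the 9 genes (red, named), with dashed lines at 2-fold. All 9 lie inside the lines, from -0.21 for Parp10 to 0.29 for Parp8.

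Among 16 PARP family genes, a count that leaves out Dtx3l, the set held ranks 1 to 3, 5 to 8 and 11 by mean level. The family's summed level was 1277 and 1349 TPM. Parp14 alone gave 24.7 ± 1.14% of it, Parp9 15.8 ± 0.502% and Parp12 14.1 ± 0.230%. The 5 PARP genes of the set named above as interferon-stimulated were Parp9, Parp10, Parp11, Parp12 and Parp14. Together they made 892 and 914 TPM, or 69.8 and 67.8% of the family. Family genes outside the set, among them Zc3hav1 at 9.83 and 10.2%, were not sorted by response to interferon. The sum may therefore miss interferon-stimulated members. The 3 DNA-dependent enzymes Parp1, Parp2 and Parp3 together made 98.9 and 115 TPM, or 7.75 and 8.51%. Parp1 gave 2.51 ± 0.134%. Outside the set, 1 of 8 family genes reached 100 TPM in both libraries, the antiviral zinc finger gene Zc3hav1 at 131 ± 8.14 TPM. Only Zc3hav1 and Tiparp, a mono-ADP-ribosyltransferase at 36.7 ± 0.665 TPM, were above Parp1 in both libraries among those 8. Over all genes that passed, 9.84% reached 100 TPM and 24.9% were above Parp1, so these counts lie near those shares. The lowest was Parp16, an enzyme of the endoplasmic reticulum, at 0.510 ± 0.0141 TPM, and the one furthest apart between libraries was Parp4, the vault PARP, at 22.3 and 31.1 TPM.

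Transcript composition differed among the 9 genes. Parp14, Dtx3l and Parp1 were each made almost wholly of 1 protein-coding transcript: Parp14-201 gave 97.4 ± 0.990% of the transcript TPM of its gene, Dtx3l-201 gave 98.3 ± 0.109% and Parp1-201 gave 95.2 ± 1.72%. Parp12-201 gave 88.8 ± 2.00%, and the rest of Parp12 was Parp12-202, a retained-intron transcript, at 11.2 ± 2.00%. Parp8 was split between the protein-coding transcripts Parp8-203 at 77.8 ± 0.197% and Parp8-201 at 18.9 ± 0.720%. Parp9 was split between Parp9-201 at 63.1 ± 0.568% and Parp9-203, whose annotated start lies further inside the span of Dtx3l, at 19.7 ± 0.109%. A pair of retained-intron transcripts, Parp9-205 and Parp9-202, added 5.50 ± 0.229% and 5.32 ± 0.206%. The split depended on the quantification, as Parp9-201 and Parp9-203 gave 55.4 ± 1.23% and 25.3 ± 0.166% in the second. Parp10-201 and Parp10-202, both protein-coding, gave 70.7 ± 0.731% and 14.4 ± 0.467%. Parp10-205, annotated for nonsense-mediated decay, gave 8.24 ± 1.39% in the first quantification and 1.27 ± 0.0802% in the second. Its exons overlap those of Plec, the cytolinker gene next to Parp10 on the same strand, which stood at 18.6 and 13.6 TPM, and reads of the shared bases may not have been told apart.

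Parp3 had the largest difference between replicates in its protein-coding share. Protein-coding transcripts gave 83.4% of Parp3 in replicate 1 and 68.2% in replicate 2, and their mean share of 75.8 ± 10.7% was the lowest of the 9 genes. In replicate 1 alone, Parp11 and Parp9 had lower shares, at 81.8 and 82.3%. Parp3-203 led with 49.8 ± 6.63%, followed by Parp3-201 with 17.7 ± 0.470% and Parp3-202 with 8.31 ± 3.63%. The retained-intron transcript Parp3-206 gave 2.80 TPM in replicate 1 and 14.6 TPM in replicate 2, or 6.74 and 26.6% of the gene, and Parp3-207, also with a retained intron, gave 5.95 ± 4.28%. These rest on few reads, with 39.5 and 191 expected counts for Parp3-206. Counted over protein-coding transcripts alone, Parp3 stood at 34.6 and 37.5 TPM, against 30.1 and 33.9 TPM for Parp1, and the values still did not overlap. Exons of Parp3 overlap those of Rrp9, a gene for processing of ribosomal RNA on the opposite strand, at 11.7 and 14.6 TPM.

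**Figure D3:**
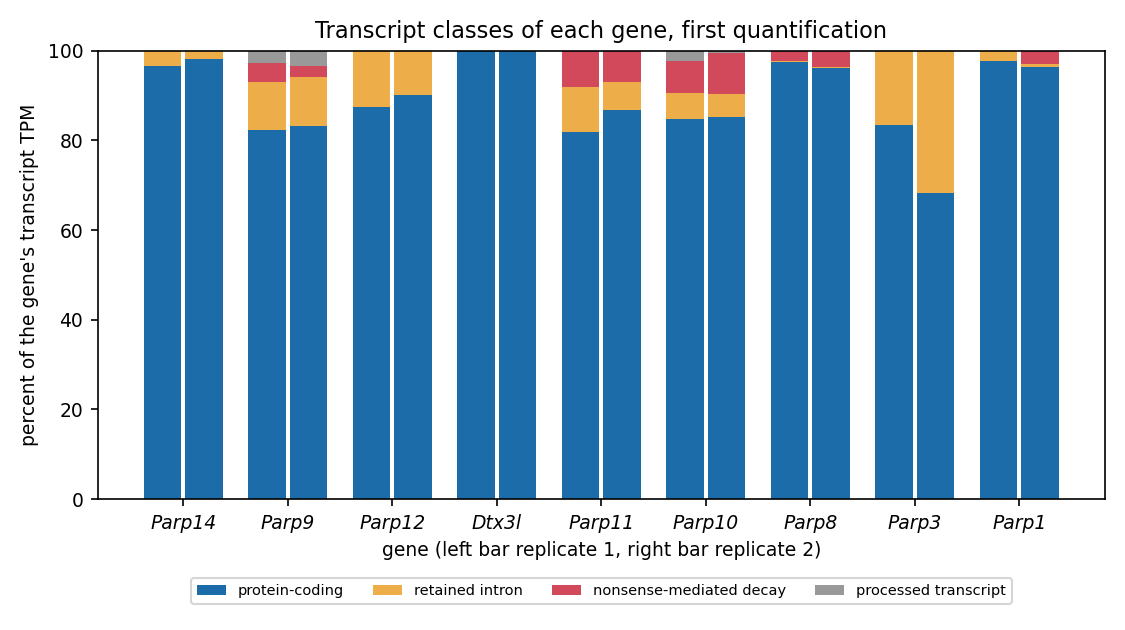
Percent of the transcript TPM of each gene by annotated transcript class in the first quantification, with replicate 1 as the left bar and replicate 2 as the right. Dtx3l is protein-coding throughout, and Parp3 has the lowest mean protein-coding share, with 83.4% in replicate 1 and 68.2% in replicate 2.

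The leading transcript was the same in both libraries and both quantifications for 8 of the 9 genes, and for 78.4% of the genes that passed the filter and have more than 1 transcript. The exception was Parp11. In the first quantification Parp11-201 led with 43.3 ± 2.70% and Parp11-202 followed with 37.9 ± 4.47%. In the second quantification Parp11-202 led with 37.1 ± 4.26% and Parp11-201 gave 23.9 ± 5.19%. A transcript annotated for nonsense-mediated decay, Parp11-209, gave 7.54 ± 0.779% in the first.

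Parp11-202 is the transcript that begins at the upstream start, behind the window that holds the response element core and the STAT site. It stood at 31.7 and 41.9 TPM, or 34.7 and 41.0% of Parp11. The 5 transcripts from the downstream start, behind the window with the GC box, summed to 53.1 and 55.7 TPM, or 58.1 and 54.5%. The upstream start thus supplied the smaller amount in each library in the first quantification. In the second quantification the upstream start gave 38.3 and 52.9 TPM and the downstream start 45.2 and 44.9 TPM, so their order differed between replicates. The transcript that begins between them, Parp11-204, differed most between quantifications, at 0 and 2.28 TPM in the first and 19.8 and 29.8 TPM in the second. The share of the upstream start was close in both, at 34.1 and 40.1% in the second. Replicate 2 had the higher upstream share and the lower downstream share in both quantifications. The grouping by start was made after the values had been seen.

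**Figure D4:**
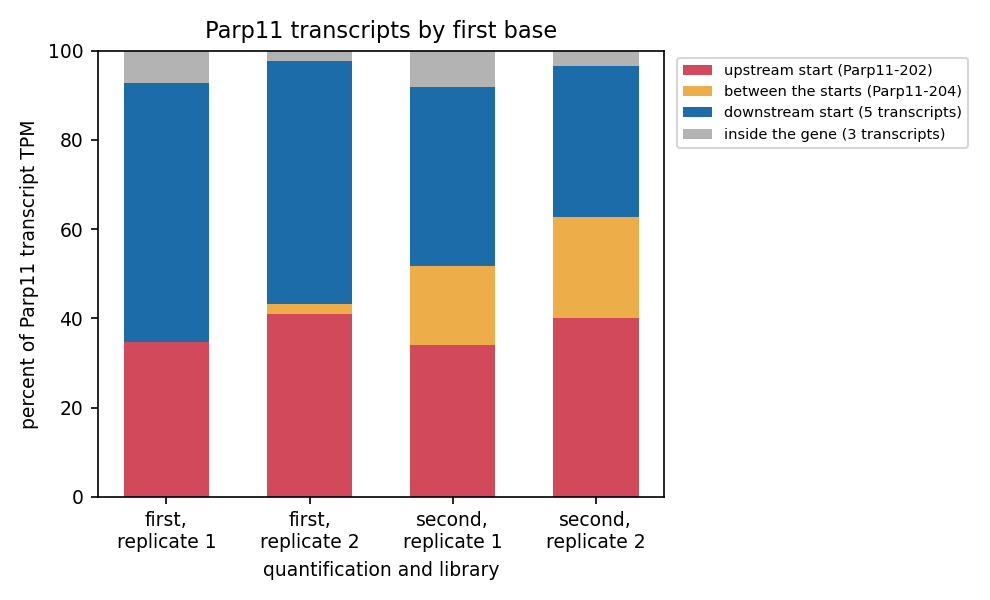
Percent of Parp11 transcript TPM by annotated first base, for each library in the first and the second quantification. The upstream start gives 34.7 and 41.0% in the first quantification and 34.1 and 40.1% in the second, while Parp11-204 gives 0 and 2.23% in the first and 17.6 and 22.6% in the second.

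For gene levels the quantifications lay close, apart from Parp11. None of the 9 genes was 2-fold or more apart between them, against 13.4% of the 12268 genes at 1 TPM or more in either. That share takes in genes at far lower levels, so the count does not set the 9 apart. Parp11 was the furthest, at 113 and 132 TPM (122 ± 13.8 TPM) in the second quantification, a log2 ratio of second over first of 0.34. It was above Parp10 in both libraries there, with Parp10 at 93.7 and 81.1 TPM. Parp14 stood at 314 and 311 TPM in the second quantification and Parp1 at 29.9 and 32.4 TPM.

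Genes that handle the same chemistry gave the surroundings of the set. The median over all genes that passed the filter was 10.9 TPM. Of those genes, 24.9% were above Parp1 in both libraries and 9.84% were at 100 TPM or more. The lists below were not filtered on counts. The share of all genes at 10 TPM in both libraries was not computed, so the counts at 10 TPM below are descriptive only. Of 8 genes that remove or cut ADP-ribose, 4 reached 10 TPM in both libraries and none reached 100 TPM. Their median was 10.8 TPM, close to that of all genes that passed. The highest was Adprh, a hydrolase that frees ADP-ribose from arginine, at 47.3 ± 2.36 TPM, and the only one above Parp1 in both libraries. The lowest was the macrodomain hydrolase gene Macrod2 at 0.385 ± 0.0212 TPM. Furthest apart between libraries on TMM-scaled CPM was Enpp1, with a log2 ratio of -0.45, though at 3.70 and 3.22 TPM it was not so on TPM. Of 11 partners of PARP1 and genes of single-strand break repair, 7 reached 10 TPM in both and 2 were above Parp1 in both, with a median of 19.5 TPM. Polb, the repair DNA polymerase, was highest at 55.6 ± 5.71 TPM and Aplf lowest at 2.46 ± 0.403 TPM. The scaffold gene Xrcc1 was furthest apart, at 28.6 and 18.5 TPM. Every gene of this list was below Parp14, Parp9, Parp12 and Dtx3l in both libraries.

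Of 13 genes of NAD+ supply, Nampt, the salvage enzyme that recycles nicotinamide, stood at 196 ± 12.4 TPM, of the order of Parp9 and Parp12, and was the only one above Parp1 in both libraries. The list's median was 2.30 TPM, 2 of 13 reached 10 TPM in both, and Nmnat2, Qprt and Haao were at 0 in both, which allows up to 3 counts each. Kynu, of the kynurenine path, was 2-fold or more apart, at 1.52 and 4.70 TPM. Among 11 other users of NAD+ the median was 6.76 TPM and 4 reached 10 TPM in both. The deacetylase gene Sirt2 led at 99.1 ± 0.969 TPM, and Nnmt was at 0 in both. Cd38, the ectoenzyme that degrades NAD+, stood at 57.4 and 43.2 TPM and was furthest apart on TMM-scaled CPM, with a log2 ratio of -0.43. Sirt2 was the one other user at the level of Parp11 and Parp10.

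All 9 factors of interferon signalling were above Parp1 in both libraries, against 24.9% of all genes that passed the filter. At 100 TPM or more in both were 5 of them, against 9.84%. Their median was 184 TPM. The highest was the transcription factor gene Irf7 at 2212 ± 164 TPM and the lowest the receptor gene Ifnar1 at 59.5 ± 9.71 TPM. The kinase gene Jak1 lay furthest apart, at 86.5 and 114 TPM. These values are levels in twice-treated cells and say nothing of change.

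**Figure D5:**
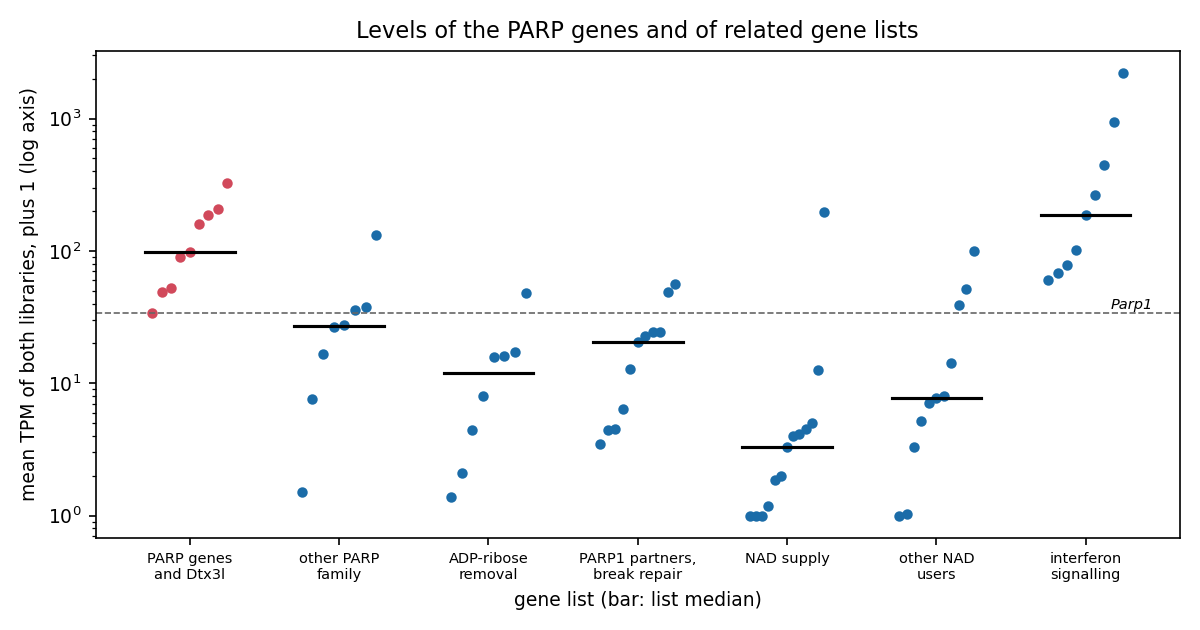
Mean TPM of both libraries plus 1 (log axis) for each gene of the set (red) and of 6 related lists (blue), with bars at list medians and a dashed line at Parp1. The set's median of 96.8 TPM lies below that of the interferon signalling factors, 184 TPM, and above those of the other lists.

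The protein-coding genes with starts within 100 kb of a gene of the set varied widely in level, and most lay near Parp3 or Parp10. Of 22 such genes outside the set, 10 were under 1 TPM on average, and the median was 1.21 TPM. The same values over all protein-coding genes were not computed, so these do not set the neighbours apart. The 22 were not filtered on counts, so the 9.84% of filtered genes at 100 TPM or more is not a like measure for them. At 100 TPM or more in both libraries were 2 of the 22. Those 2 were Grina, a transmembrane gene beside Parp10, at 362 and 370 TPM, and the ribosomal protein gene Rpl29, near Parp3, at 492 and 417 TPM. Nearest to Parp14 in level over both libraries were Tmed10 at 328 and 327 TPM, Gm2000 at 322 and 328 TPM and Uqcr10 at 329 and 331 TPM, at log2 distances of 0.02 to 0.04. Nearest to Parp1 were Ppp4r3a at 30.8 and 34.9 TPM, Lpcat3 at 30.5 and 35.0 TPM and Mybbp1a at 31.1 and 35.4 TPM, at distances of 0.01 to 0.02. With 2 libraries this likeness describes level alone.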

How the data were processed

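The authors deposited, per the file headers, a gene table and a transcript table of expected counts, TPM and FPKM for each library, called the first quantification, and a transcript table of estimated counts and TPM, called the second. Per the README deposited with each sample, the build is mm10, the annotation is GENCODE M21, and the first derives from a transcriptome alignment and the second from the reads. Not given in the sources used here were the aligner, both quantifiers and the strand handling. The deposited TPM is scaled for length and to a fixed total over all entries of a table, and the deposited FPKM, per the file headers, for length and depth; FPKM entered 1 alternative only.

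Gene symbols came from the target names of the second quantification and were joined by gene identifier. Levels are deposited gene TPM, and levels of the second quantification are transcript TPM summed by gene. Log2 levels used a pseudocount of 1 TPM. For distances between replicates, expected counts of the 2 libraries (50503159 and 46342331 in all) were rounded, filtered with filterByExpr and TMM-scaled in edgeR 4.0.16 under R 4.3.3, with a prior count of 0.5. The script was tested on simulated data. Alternative size factors came from DESeq2 1.42.0, and other steps used Python 3.11.15, pandas 2.3.3, NumPy 2.4.6 and matplotlib 3.10.9. A count of 0 allows up to 3 counts, which covers counting error only. With 1 group no p-value was computed, and the SD of 2 libraries, which may be partly technical, is the only error. With n = 2, differences were read as beyond that spread where the values did not overlap.

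The 9 genes and all lists were chosen with earlier results of these data known. From each of 6 lists the highest, the lowest and the gene furthest apart between libraries, by log2 ratio on TMM-scaled CPM, were named. Protein-coding neighbours were summarised within 100 kb, and the 3 genes nearest in level are those with the smallest Euclidean distance in log2 level. Transcripts were named at 5% or more of their gene in either library, and Parp11-204 was added for its values in the second quantification. Alternatives were the second quantification, TPM rescaled over protein-coding genes, other pseudocounts, prior counts, size factors and filters, each library alone, and protein-coding transcripts alone. Entries that name no gene stayed out of library sizes.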

Additional observations from a re-analysis of the deposited data

How the results depend on the processing

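Of the counts over the set, that at 100 TPM or more was 4 and became 5 in the second quantification and with replicate 2 alone, where Parp11 passed, and the others kept their values under every alternative run. The median log2 ratio of the other 8 genes over Parp1 was 1.89 and moved to 2.09 in the second quantification, to 1.92 with a pseudocount of 0.1 TPM and to 1.82 over protein-coding transcripts alone, the last chosen after seeing the data. It kept its direction in all 3. Genes 2-fold or more apart between replicates numbered 528, and 5481 with no filter on low counts, where genes with few reads enter, while none of the 9 genes was 2-fold apart there. Leaving out a library shifts a mean of 2 by less than their SD by construction, so those values were not counted here. Of the other 18 alternative values for levels, 4 moved by 1 SD or more between libraries. Of 16 ratios over Parp1 5 did, and of 9 leading transcript shares 6 did. No ratio over Parp1 changed direction. Of 36 replicate ratios none moved by over 0.1. The replicate ratio of Parp14, close to 0, changed sign from -0.015 to 0.012 in the second quantification. The levels that moved included Parp11 at 122 TPM in the second quantification. No paired analysis was possible because the series as used here holds 1 group. At these depths each of the 9 genes rested on 3169 or more expected counts per library, so the number of libraries, not the depth, limits their precision; single transcripts such as Parp3-206 rest on far fewer.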
